A study of Mus musculus with 4 samples.

Results

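Very long genes of neurons and cell adhesion are mostly intron, and here 47 of them were read as long stretches of autosomal chromatin in the testis. They were given as a list, of very long autosomal genes that are silent or low in germ cells, and the H1t peaks taken are those that overlap a gene body by at least 1 bp. All 47 were found once in GENCODE vM21 on GRCm38, out of 20807 autosomal protein-coding genes. They held 1089 of the 48681 H1t peaks, which is 2.24% of them. The members were selected on gene length and on H1t peak counts of these data, which were known when the list was drawn up, so their counts and densities are a description and carry no test. RNA was not measured in these files, so the silence of the genes in germ cells could not be checked.

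H1t is the linker histone variant of spermatocytes, and like other linker histones it binds the DNA that enters and leaves the nucleosome. The ChIP material was chromatin of testicular cells from C57BL6 mice at post natal day 20, precipitated with an antibody against H1t in 2 libraries, and the control was input chromatin of the same strain and age in 2 libraries. The labels call the cells pachytene cells, while the protocol names testicular cells and no sorting step, so cells other than pachytene spermatocytes may have been present. Peaks were called once, on both ChIP libraries together against both inputs together, and no value exists for a single library. Pooled depth was 39221290 ChIP and 30377916 input fragments after removal of duplicates. Every interval is therefore a 95% interval for counting error only, and no replicate error can be given.

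In neurons, the products of these genes build and wire synapses. Neurexins and receptor phosphatases sit on one side of the synaptic cleft and bind partners on the other. Teneurins, IgLON proteins and cadherins hold membranes together, and Robo, Dcc and Unc5 proteins read guidance cues for growing axons. Within the list, Fhit, Wwox, Macrod2 and Immp2l are best known as genes in which chromosomes break under replication stress. Such genes carry little coding sequence for their size.

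The 47 gene bodies ranged from 520 kb for Robo2, a receptor for the guidance cue Slit, to 2271 kb for Ptprd, a receptor tyrosine phosphatase that organises synapses. Their median length was 1104 kb, and 32 of them exceeded 1 Mb. Together they covered 57.2 Mb without assembly gaps and held 19.0 peaks per Mb (95% Poisson interval 17.9 to 20.2), against 20.2 per Mb (20.0 to 20.4) over the 19 autosomes. The ratio was 0.943 (0.888 to 1.0). With each gene set against the density of its own chromosome, 1089 peaks were found where 1152 would be expected, a ratio of 0.946. The densities differed little, and the direction turned when peaks were limited to those at the caller's ordinary background, with a ratio of 1.05 (0.982 to 1.12). Ordinary means at most 2% above the commonest value of that background, 4.95 fragments. The local input itself is not in the list. A raised local background was found at 13.4% of the peaks in the genes, against 22.1% of all autosomal peaks. In the other autosomal protein-coding genes of at least 500 kb the share was 14.2% of peaks, close to that of the listed genes.

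The bodies were then set against the sequence beside them and against other genes of the same length class. The 500 kb on either side of the 47 genes held 825 peaks at 18.2 per Mb (17.0 to 19.5), a ratio of 1.04 for bodies to flanks (0.953 to 1.14). With peaks at the ordinary background that ratio was 1.11 (1.01 to 1.23). The body was denser than its own flanks in 26 genes and sparser in 21. The pooled flanks leave out all 47 bodies, but the flanks of a single gene leave out only its own. The other 171 autosomal protein-coding genes of at least 500 kb held 2474 peaks at 19.3 per Mb (18.5 to 20.0), which gave a ratio of 0.989 for the 47 genes to these (0.920 to 1.06). At least 1 peak lay in 46 of the 47 genes, and 98.6% of all 218 autosomal protein-coding genes of at least 500 kb held one, so that holding a peak is ordinary at this length.

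Peak number followed gene length. Across the 47 genes Spearman's rho between peaks and length was 0.65 and Pearson's r 0.67, as a description over genes that share the same pooled libraries. Between density and length rho was -0.13. Rbfox1, a splicing regulator of neurons, held the most peaks, with 47 over 1526 kb (chr16:5885355-7411526, GRCm38). Lsamp, an IgLON adhesion protein, held 39 over 2197 kb, and Ptprd held 39 over 2271 kb. Dlg2, the scaffold PSD-93, held 38 over 1973 kb. Macrod2, a macrodomain hydrolase, held 36 over 1998 kb, while the teneurin Tenm2 reached the same 36 in 1229 kb. Dab1, the adaptor of reelin signalling, held 35 over 1125 kb, Lrp1b, an endocytic receptor, 34 over 2058 kb and Opcml, another IgLON, 34 over 1135 kb. Dpp6, Ntm and Cntnap2 held 32 each over 910 kb, 968 kb and 2245 kb. Cntnap2 is thus more than 1 Mb longer than Dpp6 at the same count.

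**Figure D1:**
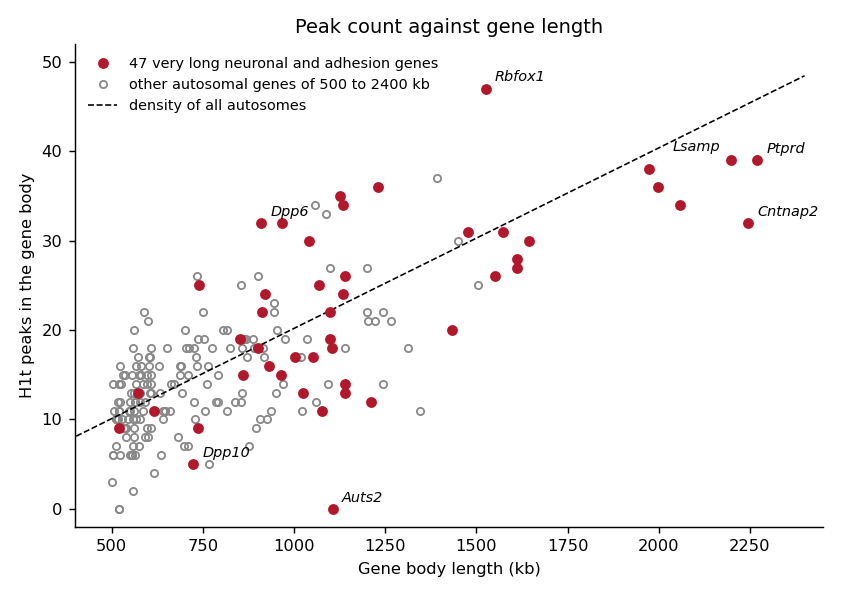
H1t peaks in each gene body (vertical axis, count) against gene body length (horizontal axis, kb) for the 47 genes (filled points) and other autosomal protein-coding genes of at least 500 kb (open points, with Gm20388 and Fgfr2 beyond the axis), and the dashed line is the density of all autosomes, 20.2 per Mb. Rbfox1 lies highest with 47 peaks, and Auts2 lies at 0 with 1106 kb.

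The middle 50% of the genes lay between 16.2 and 22.8 peaks per Mb, with a median of 17.7. The squared deviations of the counts from a common density were 2.89 times those of a Poisson count, and 2.43 times without Auts2, a description of counts that the choice of the genes rests on. The same quantity was 1.66 over the other 171 genes, which are shorter and so hold fewer peaks each. The 95% interval of the density held the pooled 19.0 per Mb in 35 of the 47 genes, lay above it in 8 and below it in 4. Among the other 171 genes the interval lay above the same value in 8 and below it in 9. The difference in spread between these sets was not tested.

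The 8 dense genes were Dpp6, Tenm4, Ntm, Dab1, Rbfox1, Opcml, Tenm2 and Cdh13. Dpp6 (chr5:26817203-27727505), an auxiliary subunit of Kv4 potassium channels, was densest at 35.2 peaks per Mb (24.0 to 49.6). Tenm4, a teneurin, had 25 peaks in 740 kb, or 33.8 per Mb (21.9 to 49.9). Ntm, an IgLON, stood at 33.0 per Mb (22.6 to 46.6), Dab1 at 31.1 (21.7 to 43.2) and Rbfox1 at 30.8 (22.6 to 41.0). The 5 intervals overlap widely, so no order among them is shown. Opcml stood at 30.0 per Mb, Tenm2 at 29.3 and Cdh13, the GPI-anchored T-cadherin, at 28.8 with 30 peaks. Against its own chromosome each of the 8 stood at 1.39 times for Cdh13 to 1.71 times for Dpp6. The 8 were picked for intervals above 19.0 per Mb, and single autosomes held 18.2 to 23.8 per Mb. That choice largely fixed these ratios, which are no further support. Their flanks held 16 peaks per Mb beside Tenm2 to 33 beside Opcml, against a median of 18 over the 47 genes. Beside Opcml the flanks were denser than the body. Ntm lies 69.3 kb from Opcml, however, so the flanks of each include part of the other, itself a dense gene. Across the 47 genes rho between the density of the body and that of its flanks was 0.44, as a description. Where 2 listed genes are neighbours, the same peaks count in the body of one and the flanks of the other.

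The 4 sparse genes were Erbb4, Csmd3, Dpp10 and Auts2. Erbb4, the receptor kinase for neuregulins, held 11 peaks in 1076 kb, or 10.2 per Mb (5.10 to 18.3). Csmd3, a large membrane protein of CUB and sushi domains, held 12 in 1211 kb, or 9.91 per Mb (5.12 to 17.3). Dpp10 (chr1:123321471-124045559), the relative of Dpp6 and likewise a Kv4 subunit, held 5 in 724 kb, or 6.91 per Mb (2.24 to 16.1). Sgcz, which encodes zeta-sarcoglycan, came next with 13 peaks in 1139 kb, or 11.4 per Mb (6.08 to 19.5), and its interval held the pooled density. The flanks of Erbb4, Csmd3 and Dpp10 held 16, 20 and 12 peaks per Mb, above the bodies in all 3. RefSeq gives a longer Dpp10 of 1514 kb, over which 21 peaks gave 13.9 per Mb, so the low value belongs to the GENCODE span. The 500 kb upstream of that span, counted as flank, lie inside the RefSeq gene.

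**Figure D2:**
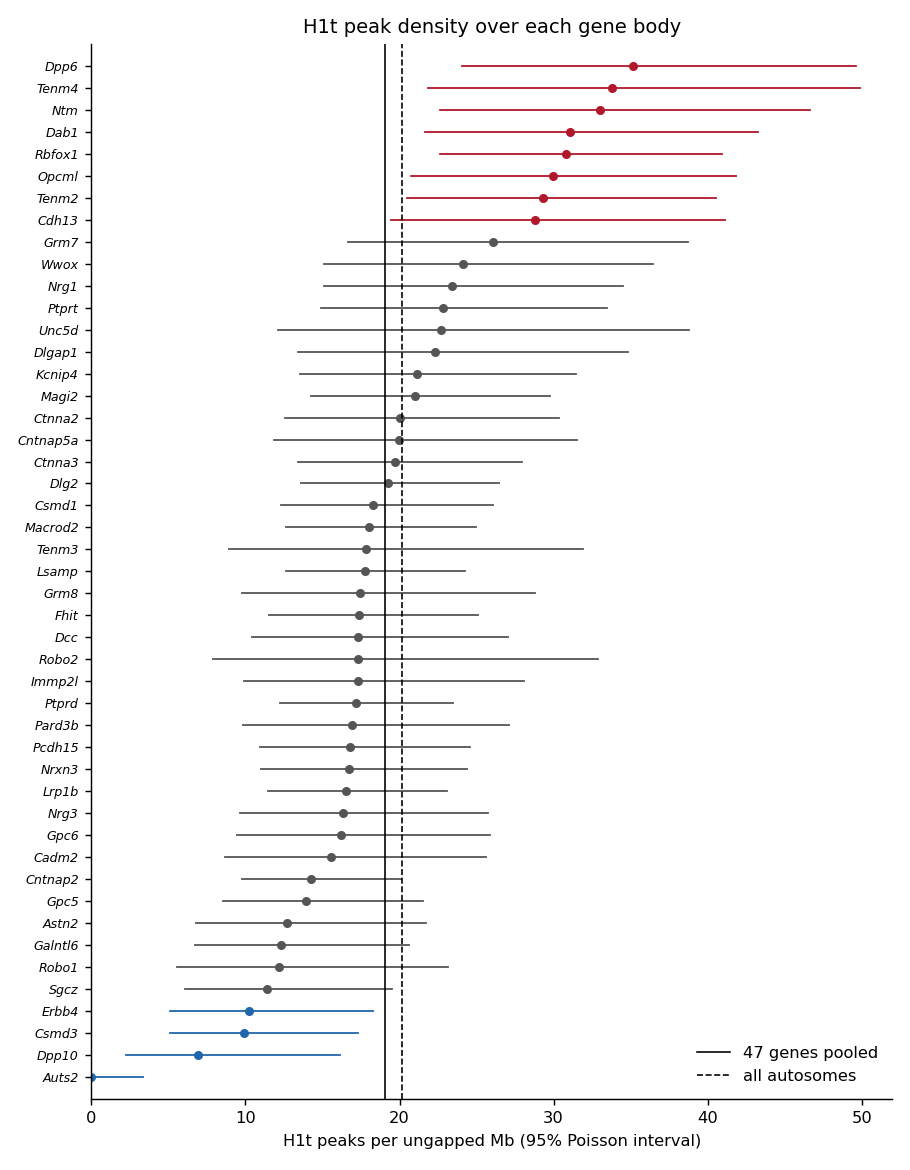
H1t peaks per ungapped Mb for each of the 47 gene bodies (points), with 95% Poisson intervals (lines), from densest to sparsest. The solid line is the 47 genes pooled (19.0 per Mb), the dashed line all autosomes (20.2), and red and blue mark the 8 genes whose interval lies above the solid line and the 4 below it.

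Auts2, a nuclear protein of a Polycomb complex in the developing brain, held 0 peaks in 1106 kb (chr5:131437333-132543344, minus strand), which allows a density of up to 3.34 per Mb at the upper end of the Poisson interval, and of up to 2.71 per Mb by the limit of 3 counts. At the density of its own chromosome 22.7 peaks would lie there. The body is free of assembly gaps and holds 43.6% G+C and 24.1% of bases masked as repeats, against 39.3% and 28.0% over the 47 genes. The nearest peaks lay 50.2 kb upstream of its start, at a fold of 1.68, and 139 kb past its end, at a fold of 1.703. The 500 kb upstream of the start held 12 peaks and the 500 kb past the end held 5. The whole stretch without a peak, chr5:131297903-132593563, measured 1296 kb and was the longest of all autosomes once assembly gaps are left out. It also overlapped Galnt17, the neighbouring gene for a glycosyltransferase. The next longest, on chromosome 2 around Zfp968, had 1147 kb outside gaps and was 59.7% masked. Peak numbers ran on without a break in the list used here. Whether reads of either kind were also scarce in it was not tested, since coverage outside peaks is not in the peak list.

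**Figure D3:**
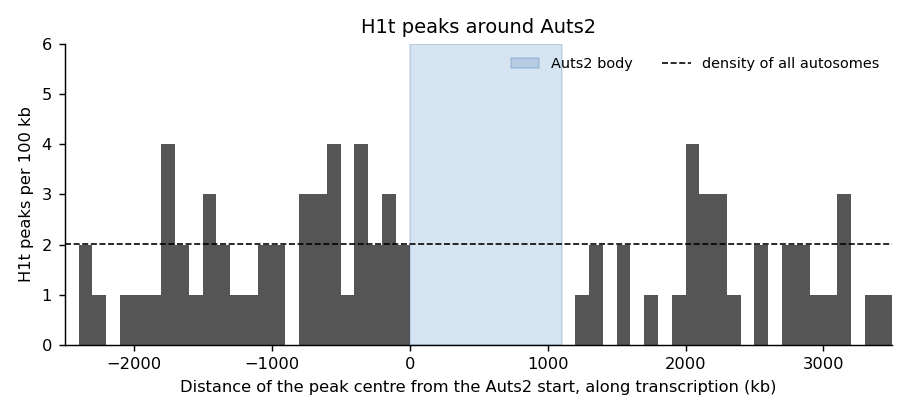
H1t peaks per 100 kb (bars) by distance of the peak centre from the Auts2 start along its transcription (kb), with the gene body shaded and the density of all autosomes dashed. No peak lies in the 1106 kb body, while 12 lie in the 500 kb upstream and 5 in the 500 kb past its end.

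Density varied within families as well as between them. The ratios between members given here and below describe counts that the choice of members rests on, and carry no test. The teneurins together held 72 peaks at 27.8 per Mb (21.8 to 35.1), the densest of the 14 role groups. Within them Tenm3, which wires hippocampal and visual circuits, stood at 17.8 per Mb (8.91 to 31.9), below Tenm4 and Tenm2. The 3 Kv4 channel subunits averaged 22.0 per Mb (16.8 to 28.3) while holding both the densest gene and, by GENCODE spans, the sparsest gene with a peak. By GENCODE spans the ratio of Dpp6 to Dpp10, the ends of this range, was 5.09 (1.97 to 16.7). By RefSeq spans Dpp6 stood at 35.2 and Dpp10 at 13.9 per Mb, and Csmd3, at 9.90, was then the sparsest gene with a peak. Kcnip4, the calcium-binding subunit, lay between them at 21.1 per Mb. For the CUB and sushi proteins, Csmd1 stood at 18.3 per Mb and Csmd3 at 9.91, a ratio of 1.84 (0.916 to 3.95). That group, at 14.7 per Mb (10.6 to 19.9), and the glypicans, heparan sulfate proteoglycans of the cell surface, at 14.9 (10.5 to 20.5), were the sparsest.

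Among the adhesion genes, the ratio to their relative Lsamp was 1.86 (1.13 to 3.05) for Ntm and 1.69 (1.03 to 2.74) for Opcml. Ntm and Opcml lie 69.3 kb apart on chromosome 9 and had a ratio of 1.10 (0.659 to 1.84). Gpc6 and Gpc5, also neighbours at 400 kb, stood at 16.2 and 13.96 per Mb with a ratio of 1.16 (0.570 to 2.33). Robo2 and Robo1, the Slit receptors 846 kb apart on chromosome 16, held 9 peaks each, at 17.3 and 12.2 per Mb. RefSeq gives Robo2 a length of 1555 kb with 22 peaks, or 14.1 per Mb, and Robo1 1020 kb with 14 peaks, or 13.7 per Mb. RefSeq also gives a longer Tenm3, at 1297 kb with 27 peaks and 20.8 per Mb.

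In neuregulin signalling, ligands and their receptor are on the list. Nrg1 held 25 peaks at 23.4 per Mb, Nrg3 held 18 at 16.3 and their receptor Erbb4 stood at 10.2. The ratio of Nrg1 to Erbb4 was 2.29 (1.09 to 5.15) and that of Nrg3 to Erbb4 was 1.59 (0.713 to 3.74), as descriptions. The netrin receptors Dcc and Unc5d held 19 and 13 peaks, at 17.3 and 22.7 per Mb. The synaptic scaffolds lay close together, with Dlgap1 at 22.3, Magi2 at 21.0 and Dlg2 at 19.3 per Mb. The metabotropic glutamate receptors Grm7 and Grm8 stood at 26.0 and 17.4 per Mb. The neurexin superfamily ran from 14.3 per Mb for Cntnap2, which clusters potassium channels on axons, through 16.7 for Nrxn3 to 19.9 for Cntnap5a. The 4 fragile site genes held 102 peaks at 18.7 per Mb (15.3 to 22.7), from 17.3 in Immp2l to 24.1 in Wwox.

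Among these very long genes density went with base composition. Across the 47 genes the G+C content of the body ran from 35.2% in Csmd3 to 45.9% in Cdh13. Spearman's rho between density and G+C was 0.64 and Pearson's r 0.58, and without Auts2 they were 0.72 and 0.75. These are descriptions over genes measured in the same pooled libraries. The 16 genes lowest in G+C, up to 38.2%, held 15.4 peaks per Mb (13.8 to 17.2), the middle 15 held 18.6 (16.7 to 20.6) and the 16 highest held 24.0 (21.8 to 26.5). Without Auts2 the highest set held 25.7 per Mb. Density fell with the masked share of the body, with a rho of -0.56. Over the other 171 genes rho was 0.59 with G+C and -0.43 with the masked share. Base composition affects how well DNA is amplified and sequenced, and its part in these densities was not tested.

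**Figure D4:**
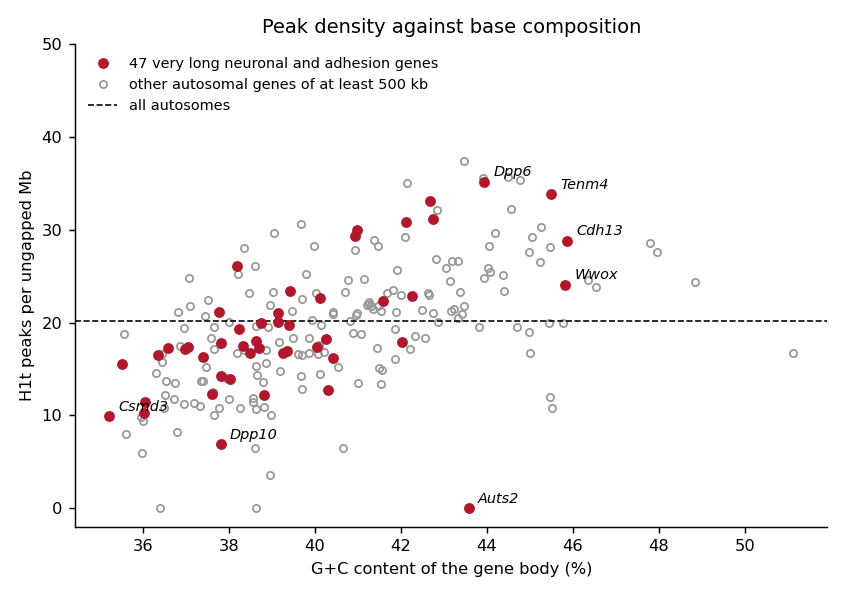
H1t peaks per ungapped Mb (vertical axis) against the G+C content of the gene body (horizontal axis, percent) for the 47 genes (filled points) and the other autosomal protein-coding genes of at least 500 kb (open points), with the density of all autosomes dashed. Density is higher in genes of higher G+C (rho 0.64 over the 47), and Auts2, at 43.6% G+C and 0 peaks, lies far from the rest.

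The same comparison was made within genes. Each body was divided into windows of 100 kb, and the windows above the gene's own median G+C held 528 peaks at 20.1 per Mb (18.4 to 21.9), against 465 at 17.7 per Mb (16.1 to 19.4) in those below it. The ratio was 1.14 (1.0 to 1.29). The richer windows held more peaks per window in 24 genes and fewer in 19. On the scale of single peaks, G+C content was higher under the peaks of a gene than over its whole body in 45 of the 46 genes with a peak, Wwox being the exception. Pooled, peaks held 41.6% G+C and 0.753 CpG per 100 bp, against 39.3% and 0.632 over the bodies. Peaks of the other 171 very long genes held 43.2% G+C, against 40.9% over their bodies. All autosomal peaks held 43.5%, against 41.9% over the autosomes. A higher G+C under peaks is thus not particular to the listed genes, and the share of other genes that show it was not counted. Masked repeats made up 26.8% of the bases under the peaks (25.1 to 28.4), against 28.0% of the bodies, and the share under peaks was the lower in 23 of 46 genes. Other autosomal peaks held 33.5% masked bases, and the autosomes as a whole also held 33.5%. Peaks at least 50% masked made up 16.2% of the peaks in these genes, against 24.1% of other autosomal peaks. In the other 171 very long genes peaks held 27.6% masked bases, and 17.4% of them were at least 50% masked. Both low shares are thus found in very long genes that are not on the list.

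Peaks lay evenly along the genes. With each gene divided into 5 equal parts in the direction of transcription, the parts held 227, 222, 203, 222 and 215 peaks. The first 20% of the length thus held 20.8% of the peaks (Wilson interval 18.5 to 23.4), and with 10 equal parts no interval missed 10%. Single genes departed from this. Sgcz had 7 of its 13 peaks in the first 20% of its length and Tenm4 had 10 of 25 in the last 20%. Erbb4 and Tenm3 had 0 peaks in the first 20%, and the first peak of Erbb4 lay 307 kb from its start. Nrg1 had 1 of its 25 peaks in the first 20%, 9 in the middle part and 8 in the part after it. Longest stretches without a peak ran from 90.7 kb in Grm7 to 371 kb in Macrod2, with a median of 166 kb, among genes with a peak. These single genes were chosen after their values were seen.

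**Figure D5:**
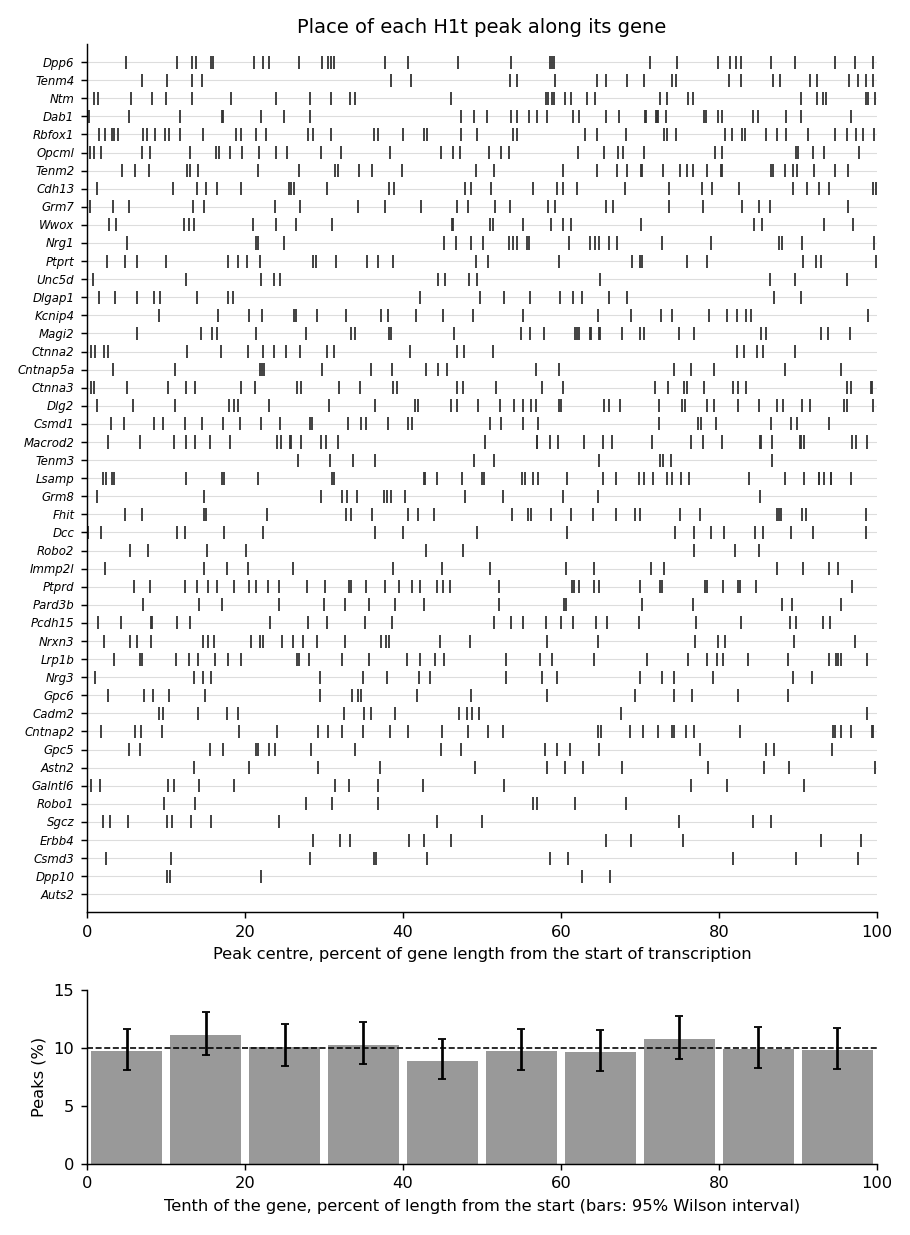
Upper panel, centre of every H1t peak (ticks) along each of the 47 genes, as percent of gene length from the start of transcription, with genes from densest to sparsest. Lower panel, percent of the 1089 peaks in each of 10 equal parts of the gene with 95% Wilson intervals, where all 10 intervals hold the 10% that equal length gives (dashed line).

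Peaks near gene starts and ends were about as many as even spacing gives. Of the 1089 peaks 1 lay within 1 kb of a gene's start, against 1.23 expected if peaks of these widths were spread evenly over the bodies. That peak lay in Csmd3, with its centre 0.589 kb inside the gene and over coding sequence. Within 10 kb of the start lay 12 peaks against 9.40, and within 10 kb of the end lay 12 against 9.40. Within 1 kb of any annotated start of any transcript lay 7 peaks against 9.62. The first intron, in the longest coding transcript, held 26.1% (23.6 to 28.9) of the peaks in that transcript with 23.8% of its length. The longest intron held 34.8% (32.0 to 37.8) with 36.4% of the length.

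Exons were touched by few peaks, though by somewhat more than even spacing over the bodies gives. An exon of any transcript was overlapped by 35 peaks, 3.21% (2.32 to 4.44) of them, against 2.36% of equally wide positions of the bodies. Coding sequence was overlapped by 28 peaks in 21 genes, 2.57% (1.78 to 3.69), against 1.58% of positions. In the other 171 genes the peaks overlapped coding sequence in 3.33% of cases (2.70 to 4.10), against 2.61% of positions. Csmd1, a regulator of complement, had 5 of the 28 and no other gene more than 2. Another annotated gene was overlapped by 42 peaks, 3.86%, against 3.74% of positions.

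The peaks in these genes were weak by the caller's own measures. Fold is the pileup of ChIP fragments over the value expected from the input, with a small constant added to both. Its median was 1.72 with a range of 1.59 to 2.36. A fold of at least 2 was reached by 34 of the 1089 peaks, or 3.12% (2.24 to 4.33), against 3.64% of all peaks in the list. These 34 lay in 23 of the 47 genes, and the share of other genes with such a peak was not counted. A q under 0.05 was reached by 0 peaks, against 0.255% of all peaks, and the lowest q among them was 0.575, in Opcml. The peak caller kept regions at an unadjusted p of 0.05, and the median p here was 0.0237. Median pileup was 9.35 fragments in the genes and 9.41 at other autosomal peaks, and the median fold was 1.72 and 1.73. Median width was 626 bp in the genes against 653 bp at other autosomal peaks and 625 bp in the other 171 very long genes. Within 5 kb of another peak lay 15.2% of the peaks in these genes (13.1 to 17.4), against 20.4% (20.0 to 20.7) of other autosomal peaks.

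The 10 peaks of highest fold lay in Opcml, Rbfox1 with 2, Nrxn3, Lrp1b, Tenm2, Ptprd, Cntnap5a, Dab1 and Tenm3, at folds of 2.36 down to 2.14. The middle 150 bp of the top 5 are given on the plus strand of GRCm38, since they are the sites of highest fold in these genes, with each CpG, the dinucleotide that mouse cells methylate, in capitals.
Opcml, chr9:27980326-27980475: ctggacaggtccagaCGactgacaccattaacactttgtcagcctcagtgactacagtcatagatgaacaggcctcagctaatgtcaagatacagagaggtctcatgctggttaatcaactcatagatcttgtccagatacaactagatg
Rbfox1, chr16:6871260-6871409: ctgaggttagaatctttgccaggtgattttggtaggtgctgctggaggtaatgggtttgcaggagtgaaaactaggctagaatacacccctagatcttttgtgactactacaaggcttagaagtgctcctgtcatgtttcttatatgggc
Nrxn3, chr12:89074945-89075094: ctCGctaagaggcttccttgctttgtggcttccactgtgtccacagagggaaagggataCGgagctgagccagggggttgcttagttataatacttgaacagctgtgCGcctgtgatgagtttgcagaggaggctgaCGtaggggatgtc
Rbfox1 second peak, chr16:6035168-6035317: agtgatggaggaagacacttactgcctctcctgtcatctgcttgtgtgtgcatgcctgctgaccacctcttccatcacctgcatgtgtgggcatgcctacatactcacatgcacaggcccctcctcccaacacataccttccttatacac
Lrp1b, chr2:40995035-40995184: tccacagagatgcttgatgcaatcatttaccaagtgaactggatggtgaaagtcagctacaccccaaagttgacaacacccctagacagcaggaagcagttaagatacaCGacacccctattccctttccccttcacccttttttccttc
The Opcml peak, at a fold of 2.36 and a pileup of 13.1 fragments, is 99.4% masked as repeat and lies 190 kb from the gene's start. The Rbfox1 peaks, at folds of 2.20 and 2.17, are 20.2% and 23.3% masked. The Nrxn3 peak, at 2.19, holds no masked base and 4 CpG in the stretch shown, and the Lrp1b peak, at 2.17, holds 1 CpG there. All 10 lie in introns, and 2 of them, in Opcml and Cntnap5a, are over 90% masked. The 34 peaks with a fold of at least 2 overlapped an exon in 0 cases (0 to 10.2%). Of all 1089 peaks in these genes 3.21% did, so 0 of 34 is not unusual.

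The weakest peaks are shown for contrast, in the same form, with the peak that holds the most CpG.
Magi2, chr5:20167230-20167379: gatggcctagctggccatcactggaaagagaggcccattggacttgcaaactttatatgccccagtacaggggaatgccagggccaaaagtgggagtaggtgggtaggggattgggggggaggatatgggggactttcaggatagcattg
Unc5d, chr8:28960047-28960196: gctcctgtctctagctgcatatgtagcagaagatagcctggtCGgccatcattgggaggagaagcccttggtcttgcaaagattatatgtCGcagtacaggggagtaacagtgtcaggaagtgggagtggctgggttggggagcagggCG
Lsamp, chr16:41201358-41201507: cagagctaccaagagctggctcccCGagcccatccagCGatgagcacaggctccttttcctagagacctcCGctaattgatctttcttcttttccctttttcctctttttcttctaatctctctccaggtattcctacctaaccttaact
Magi2, a scaffold of the postsynaptic density, and Unc5d had folds of 1.59 and 1.59, as did 1 peak in Dcc that is not printed. The Magi2 peak is 100% masked and the Unc5d peak 48.3%, and the stretches shown share the run cagtacagggga. The Lsamp peak had 71 CpG in 1718 bp, was 100% masked and had a fold of 1.60 with a pileup of 10.9 fragments. Its local background of 6.45 fragments was above the genome-wide value of 4.95.

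Width separated a few peaks from the rest. The widest were 3007 bp in Cdh13, 2944 bp in Rbfox1, 2612 bp in Grm8, 2476 bp in Lrp1b and 2430 bp in Tenm2, against an upper quartile of 929 bp. Their folds of 1.76, 1.73, 1.78, 1.76 and 1.82 were ordinary for these genes. The Lrp1b peak was 93.3% masked, and the other 4 were 12.1% to 39.7% masked. The Rbfox1 peak lay 23.0 kb from the start of the gene.

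Short runs were read as a check on sequence. CACACACA on either strand was found in 15.9% (13.8 to 18.2) of windows of 653 bp centred on peaks of these genes, against 17.8% of equal tiles of the bodies. AAAAAAAA was found in 22.2% (19.9 to 24.8), against 25.6% of tiles, and GAGAGAGA in 11.4% (9.63 to 13.4), against 10.6%. At least 1 CpG was found in 96.2% (94.9 to 97.2), against 94.4%. In windows at other autosomal peaks the shares were 16.3%, 20.0%, 10.4% and 96.4% in the same order of motifs.

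Relatives of the same families that are not on the list were counted in the same way. The 90 autosomal relatives held 428 peaks at 18.8 per Mb (17.1 to 20.7). All 17 of at least 500 kb held a peak, against 98.6% of all autosomal protein-coding genes of that length. So did 34 of the 36 between 100 and 500 kb and 14 of the 37 under 100 kb. The share over all genes of these shorter classes was not counted, so the counts show nothing particular to the families. Dlgap2, a scaffold like Dlgap1, held 22 peaks in 752 kb, or 29.3 per Mb (18.3 to 44.3). Csmd1 and Csmd3 stood at 18.3 and 9.91 per Mb, against 27.6 (15.8 to 44.8) in their relative Csmd2, with 16 peaks in 580 kb. Pcdh9, a protocadherin, was sparse, with 7 in 877 kb, or 7.98 per Mb (3.21 to 16.4). The other long relatives described here ran from 10.8 per Mb in Cdh18 to 25.2 in Cntnap5b and Negr1. Of the shorter relatives with over 10 peaks, Cdh4 held 14 at 30.6 per Mb, Cdh23 11 at 27.9 and Rbfox3 11 at 26.1. Relatives under 100 kb held 17 peaks at 10.1 per Mb (5.90 to 16.2). Their bodies held 48.7% G+C, against 41.9% over all autosomes. Whether density goes with G+C among these shorter genes was not tested.

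Chromosome X differed. The 47 autosomal genes held 19.0 peaks per Mb, against 0.634 per Mb (0.255 to 1.31) in the 12 X-linked protein-coding genes of at least 500 kb, from 7 peaks in 11.04 Mb. The ratio of the X-linked genes to the 47 was 0.0333 (0.0134 to 0.0689). With peaks of a fold of at least 2, of which the X-linked genes held 2, it was 0.305 (0.0355 to 1.19). The bases under all 7 were 100% masked. The 3 autosomal teneurins held 27.8 peaks per Mb, against 0 peaks in 901 kb for the X-linked teneurin Tenm1, which allows up to 4.09 per Mb. The other 4 X-linked relatives, which include the glypicans Gpc3 and Gpc4, also held 0. Males carry 1 copy of X, and the part of copy number and of repeats that reads cannot be placed in was not tested.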

How the data were processed

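Both anti-H1t ChIP libraries and both input libraries of day 20 mouse testicular cells entered 1 pooled peak call. Alignment by the authors was to GRCm38 with Bowtie2, after a quality check in FastQC 0.11.5. Their broad peaks came from MACS2 2.1.2 at an unadjusted p of 0.05, with 1 copy of each duplicate kept. The deposited list gives 4 measures, all by the authors' peak caller. The ChIP signal is the authors' pileup of fragments, and the fold is their ratio of pileup to the value expected from input. The −log10 of p and of q are deposited as the caller wrote them. Columns of values per sample left out numbered 0. Peak numbers begin at 310, and 0 are absent between the first and the last. The local background was worked back from pileup and fold, and was called raised when over 2% above its commonest value, 4.95.

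Gene bodies came from GENCODE vM21 on GRCm38 (47 of 47 symbols matched, and 95 of 95 relatives), with RefSeq spans as an alternative. Peaks per Mb used bases outside assembly gaps, and a peak counted once it overlapped a body by at least 1 bp. Densities carry exact Poisson intervals, ratios exact conditional intervals and shares Wilson intervals. The interval of the masked share is 1.96 standard errors over peaks. No test was run, since the pooled call leaves no replicates. Expected shares for exons and starts are the share of equally wide positions of each body that would overlap them. Repeats are lower-case bases of the genome. Tested on simulated data, the code assigned 1000 of 1000 peaks as known, and 95.8% of 2000 simulated ratio intervals held the set ratio. The simulated counts were Poisson counts of equal density, while counts over the 47 genes spread more widely. How often the intervals would hold under that spread was not tested. Python 3.11.15, numpy 2.4.6, pandas 2.3.3, scipy 1.17.1 and matplotlib 3.10.9 were used.

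The members and lists were chosen with earlier results of these data known. By rule, full values were given for the 10 members with the most peaks, the 5 densest and the 5 sparsest. Peaks named were the 10 of highest fold, those with a q under 0.05 and the 5 widest, and relatives named were those of at least 500 kb or over 10 peaks, of which 1 is not reported here. Sequences were the middle of the 5 peaks of highest fold, the 3 of lowest fold and the 1 with the most CpG, none from chromosome 18. Alternatives were stricter peaks by fold, q or p, peaks merged within 3 kb, peak centres, RefSeq bodies, covered bases, peaks at the ordinary background, peaks outside other genes, gene minimums of 300 kb and 1 Mb and flanks of 200 kb and 1 Mb. Leaving out Auts2 was added after seeing the data.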

Additional observations from a re-analysis of the deposited data

How the results depend on the processing

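No paired analysis was possible because the peaks were called on pooled libraries and no value exists per replicate. Of 50 recomputed values 34 stayed within the interval of the reported value (for the count of genes, within 1.5 times it). The ratio of density in the 47 genes to all autosomes was 0.822 with peaks of a fold of at least 2, 0 with a q under 0.05, 1.05 with peaks at the ordinary background and 0.864 by covered bases. Set against the other very long genes it was 1.16 by fold, 0 by q and 1.14 with a p under 0.01, and against the flanks 1.19 with a p under 0.01. The ratio of X-linked genes to the 47 was 0.305 (0.0355 to 1.19) by fold and 0.0830 (0.00994 to 0.306) by p, from 2 X-linked peaks each. The first 20% of the gene held 14.7% of peaks by fold. Exons were overlapped by 0% by fold and 5.60% by p. Masked bases were 28.9% by fold, 32.0% by p and 23.5% at the ordinary background, and with a q under 0.05 no value could be had. Only 34 peaks remained by fold, and the cause of the other shifts was not tested. Without Auts2, an alternative chosen after seeing the data, the ratio to all autosomes was 0.961. Depth is known for the pooled libraries only, and most peaks would not pass an adjusted threshold.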

Other observations

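Among the other autosomal genes of at least 500 kb, named here after their values were seen, Clstn2, which encodes a calsyntenin of the synapse, was densest, with 22 peaks in 589 kb, or 37.4 per Mb (95% Poisson interval 23.4 to 56.6). Dock2, which activates the GTPase Rac in blood cells, held 15 peaks at 35.7 per Mb (20.0 to 58.8). Ntrk3, the neurotrophin receptor TrkC, held 20 peaks at 35.6 per Mb (21.7 to 55.0), Rora, a nuclear receptor, 26 at 35.4 (23.1 to 51.9) and Sorcs3, a sorting receptor of neurons, 21 at 35.0 (21.7 to 53.5). These levels lie beside that of Dpp6. At the other end Rims1, a protein of the presynaptic active zone, held 0 peaks in 520 kb, which allows up to 7.58 per Mb, and Skint5 held 0 in 522 kb, which allows up to 7.07 per Mb. Rims1 lay in a stretch of 855 kb outside gaps without a peak. Further stretches without a peak held St6gal2, at 952 kb outside gaps, and a block of chromosome 19 of 841 kb that begins at Naaladl1, where 37 protein-coding genes lie.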
